A study of Mus musculus with 12 samples.

Results

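The integrated stress response genes described here were 10 genes of 1 pathway: Atf3, Atf4, Ddit3, Trib3, Asns, Chac1, Herpud1, Psat1, Phgdh and Ppp1r15a. They were chosen by name, as every probe that carries one of these gene names on an Agilent mouse expression array. This gave 13 of 41174 probes, and 10 of 27670 gene names. Trib3 had 2 probes, Phgdh had 3 and the other members 1 each. Ppp1r15a stands on the array under its older name Myd116 and was matched by its accession. RNA came from E14 cells, a line of mouse embryonic stem cells, grown for 72 hr with 0.33 ng/µl esiRNA and a lipid transfection reagent. An esiRNA is a mixture of many short interfering RNAs against 1 mRNA, made by digesting long double-stranded RNA. The first group received esiRNA against p400 (gene Ep400), an ATP-driven chromatin remodeller, and the second esiRNA against Tip60 (gene Kat5, Htatip on the array), the histone-acetylating enzyme of the complex that holds p400. The control received esiRNA against EGFP, a reporter gene, so all groups were transfected. The p400 RNA was set against EGFP RNA on 4 two-colour arrays, taken here as slide 1. The p400 RNA was in Cy5 in replicates 1 and 3 and in Cy3 in replicates 2 and 4. The Tip60 RNA was measured on 4 single-colour arrays and EGFP RNA on 4 others, on slides 2 and 3. The series design calls the replicates biological and states that Tip60 replicate 3 was excluded as an outlier, so the Tip60 comparison used replicates 1, 2 and 4.

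The integrated stress response begins with kinases that phosphorylate the translation factor eIF2, which lowers protein synthesis in general and raises translation of the mRNA of the transcription factor ATF4. ATF4 and its partners then switch on genes for amino acid synthesis and transport, further transcription factors such as ATF3 and CHOP, and brakes on the pathway. The kinase PERK links it to stress in the endoplasmic reticulum (ER), where the IRE1 and ATF6 arms of the unfolded protein response act beside it. Because ATF4 is controlled mainly at translation, an mRNA array does not read its protein, nor the phosphorylation of eIF2.

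Promoter sequences are shown because ATF4 acts with C/EBP proteins at a composite DNA element in many of its target genes. The element's core was searched as TGATGNAA on both strands of 300 bases around each transcription start (250 before and 50 after, RefSeq sequences of build GRCm38.p6). It was found in 3.97% of 32851 promoters and in 5 of the 10 members: Atf3, Trib3, Asns, Chac1 and Herpud1. In Trib3 it lies after the start, at bases 15 to 22, as TTACATCA. The other matches lie before the start and are shown 5′ to 3′ on the strand of the gene, with the match in capitals, for Atf3 at chr1:191183424-191183455 (minus strand), Asns at chr6:7693213-7693244 (minus strand), Chac1 at chr2:119351037-119351068 (plus strand) and Herpud1 at chr8:94386305-94386399 (plus strand).
Atf3: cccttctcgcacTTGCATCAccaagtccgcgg
Asns: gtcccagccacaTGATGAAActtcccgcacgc
Chac1: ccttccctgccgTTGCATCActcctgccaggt
Herpud1: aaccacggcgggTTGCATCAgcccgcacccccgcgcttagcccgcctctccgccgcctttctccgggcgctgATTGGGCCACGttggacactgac

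The second run of capitals in Herpud1 is a match to ERSE-II, an element of the ATF6 and XBP1 arms of the unfolded protein response. ERSE-II was present in 0.0365% of promoters and in no other member, and the related ERSE was present in 0.119% of promoters and in 0 members. The windows of Atf4, Ddit3, Psat1, Phgdh and Ppp1r15a held no match to these 3 motifs. A match is a run of letters and not a measured binding site.

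**Figure D1:**
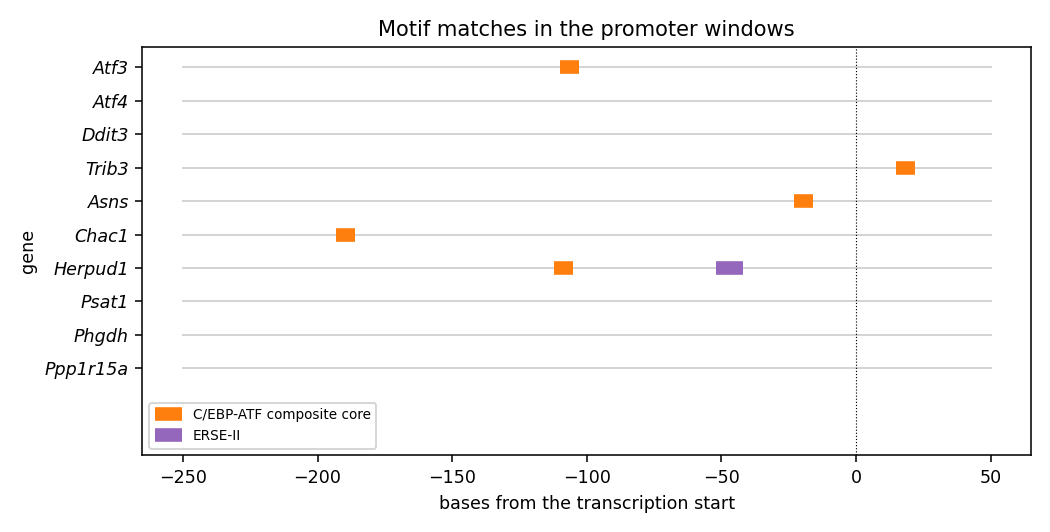
Position of motif matches in the promoter window of each member; the horizontal axis is the distance in bases from the transcription start, and each grey line is 1 promoter. The core TGATGNAA appears in 5 of 10 members, in Trib3 after the start, and ERSE-II in Herpud1 alone.

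Each value below was read by a 60-base probe, and 4 probes are printed because the results turn on them: Atf4 stands for the factor itself, Ppp1r15a for the feedback on it, and Trib3 and Phgdh for the members whose several probes check each other. Their positions on build mm7, as in the file headers, are chr15:80341130-80341189 for Atf4 (plus strand), chr7:41699940-41699999 for Ppp1r15a, chr2:152079146-152079205 for the Trib3 probe A_52_P600274 and chr3:98185627-98186335 for the Phgdh probe A_52_P661606 (minus strand for all 3). The Phgdh span is longer than its probe, as where a probe crosses an intron. No gene annotation of mm7 was used here, so exons and UTRs are not assigned.
Atf4: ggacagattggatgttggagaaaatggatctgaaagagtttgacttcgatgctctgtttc
Ppp1r15a: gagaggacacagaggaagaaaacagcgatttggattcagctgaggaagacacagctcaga
Trib3: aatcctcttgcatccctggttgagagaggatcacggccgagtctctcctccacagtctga
Phgdh: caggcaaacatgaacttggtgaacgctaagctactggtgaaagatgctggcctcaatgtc

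All 13 member probes were well above background on every array and in both channels, and none was saturated. Each channel of the p400 arrays had 27598 to 30752 spots well above background. The single-colour arrays had 25073 to 30107, apart from Tip60 replicate 3, with 22188. Precision is limited by how few arrays there are. Both targeted genes were lower in their own knockdown. The brightest Ep400 probe had log2 ratios of -0.65, -0.77, -0.24 and -0.67 for p400 knockdown over EGFP in replicates 1 to 4. Kat5 stood at log2 levels of -0.19, -0.30 and -0.27 in Tip60 replicates 1, 2 and 4, against 1.16, 1.15, 1.22 and 1.39 in EGFP replicates 1 to 4. Kat5 was also lower in p400 knockdown, with log2 ratios of -0.28, -0.41, -0.27 and -0.76 and a fitted change of -0.43 (limma adjusted p = 0.0106). The brightest Ep400 probe stood at 0.17 in Tip60 knockdown and was not called (limma adjusted p = 0.104). Of the other Ep400 probes, those tested in the fit over all probes gave -0.72 and 0.22 in p400 knockdown. In Tip60 knockdown these probes gave 0.04 and 0.36, and the latter was called higher (limma adjusted p = 0.0117). All 8 genes of a list that marks embryonic stem cells were well above background on every EGFP array. Of these, Sox2 and Esrrb were called lower in p400 knockdown. In Tip60 knockdown Sox2 and Klf4 were called lower and Tdgf1 higher. Some markers of other cell types moved with the knockdowns. Of the endoderm markers, 6 of 8 tested were higher in p400 knockdown and 6 of 7 tested in Tip60 knockdown. Of the fibroblast markers 3 of 5 and 2 of 6 were higher. Over all genes 20.1% were higher in p400 knockdown and 15.3% in Tip60 knockdown. The summed endoderm signal was 15.9 to 20.1 in Tip60 knockdown, against 11.03 to 13.9 in EGFP cells, in units of the array's 75th percentile. On the two-colour arrays that sum was 9446 to 15135 intensity units in the p400 channel, against 5243 to 8184 in the EGFP channel. The summed fibroblast signal was 4.69 to 4.91 in Tip60 knockdown, against 3.16 to 3.42 in EGFP cells, and 4432 to 5488 in the p400 channel, against 2004 to 2821 in the EGFP channel. Of that list Lum and Postn were not well above background on any single-colour array. Its calls in Tip60 knockdown were Thy1 (1.25) and Pdgfrb (0.48), while Col1a1 (-0.11), Col1a2 (-0.16) and Col3a1 (0.07) were not called. Trophectoderm markers had 3 higher and 1 lower of 6 in each knockdown. Their summed signal was lower in the p400 channel, at 6193 to 7942, against 8401 to 10373 in the EGFP channel. In Tip60 knockdown it was 7.09 to 7.31, against 6.83 to 8.74 in EGFP cells. Neural ectoderm markers had 1 higher and 1 lower of 5 tested in p400 knockdown, and 0 higher and 1 lower of 4 in Tip60 knockdown. Their summed signal was 1188 to 1366 in the p400 channel, against 983 to 1258 in the EGFP channel. In Tip60 knockdown it was lower, at 2.14 to 2.35, against 2.49 to 2.63 in EGFP cells. Mesoderm markers had 1 higher and 1 lower of 4 tested in p400 knockdown, and 1 higher and 0 lower of 4 in Tip60 knockdown. Their summed signal was lower in the p400 channel, at 329 to 385, against 406 to 540 in the EGFP channel. In Tip60 knockdown it was higher, at 0.412 to 0.417, against 0.334 to 0.386 in EGFP cells. The part of these markers in the member values was not tested, and in bulk RNA fewer cells of a type and less RNA per cell cannot be told apart.

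The first comparison asks what the loss of p400 does to these genes. In p400 knockdown, Atf3 and Ppp1r15a were higher than in EGFP cells, while Atf4, Ddit3, Trib3, Asns, Psat1 and Phgdh were lower. Chac1 and Herpud1 did not pass the test. The limma fit on the 4 log2 ratios, with a dye term, thus called 8 of 10 members at an adjusted p of 0.05 (Benjamini-Hochberg over 18691 genes), where 35.2% of all genes were called. It called 2 members higher, against 20.1% of all genes, and 6 lower, against 15.0% of all genes. The members' median log2 fold change was -0.39, and that of all genes 0.01. In the fit over all 27952 probes 11 of 13 member probes were called, 2 higher and 9 lower, where 33.1% of all probes were called, 18.1% higher and 15.1% lower. In 8 of 10 members the ratio had 1 sign on all 4 arrays, which held for 52.9% of all genes. When each p400 array was centred on its median instead of normalized by loess, the median of all genes moved to -0.11, and the members called lower were 6 again and those called higher 1. That setting deepened the values of 4 called members by over 1.5 times, with Atf4 at -0.67, Asns at -0.75, Psat1 at -0.84 and Phgdh at -0.75. It also put Herpud1, which was not called, at -0.29 (adjusted p = 0.0517).

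Among the transcription factors, Atf4 itself was modestly lower. Its log2 ratios of p400 knockdown over EGFP were -0.38, -0.29, -0.62 and -0.20 in replicates 1 to 4. All 4 arrays were below 0, and the fitted change was -0.37 ± 0.07 SE, 1.30-fold lower (limma adjusted p = 0.0120). Without replicate 2 the call was lost (adjusted p = 0.0689). Ddit3, which encodes the pro-apoptotic factor CHOP, had log2 ratios of -0.51, -0.79, -0.52 and -0.53. Replicate 2 was lowest and the other 3 arrays lay close together. The fit gave -0.59 ± 0.07 (limma adjusted p = 0.00334). Atf3, a stress-induced factor that can repress or activate its targets, went the other way, with log2 ratios of 0.79, 0.94, 1.38 and 0.45. It was above 0 on every array and rose 1.85-fold (0.89 ± 0.13, limma adjusted p = 0.00483).

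The brakes on the pathway were split. Ppp1r15a, also called GADD34, is the subunit that directs protein phosphatase 1 to eIF2 and so ends the response. Its log2 ratios were 0.27, 1.26, 0.44 and 0.32, all above 0, with replicate 2 far above the rest. The fit gave 0.57 ± 0.15, 1.49-fold higher (limma adjusted p = 0.0310). Replicate 2 set much of this value: without it the change was 0.34 and the call was lost (adjusted p = 0.0692). The call was also lost without replicate 1 (0.61, adjusted p = 0.0657), without replicate 3 (0.53, adjusted p = 0.101), with median centring (0.30, adjusted p = 0.117) and with no filter on dim probes (adjusted p = 0.0617). Trib3, a pseudokinase induced by ATF4 and CHOP that restrains them in turn, had log2 ratios of -0.58, -0.49, -1.57 and -0.89 with its brighter probe. Replicate 3 was lowest and no array was above 0. It fell 1.84-fold (-0.88 ± 0.17, limma adjusted p = 0.0108). The second Trib3 probe, whose sequence is printed above, gave -0.44, -0.71, -0.64 and -0.81, a narrower spread, and a fitted change of -0.65 ± 0.07 in the fit over all probes (adjusted p = 0.00220). When all arrays were given 1 spread, the call of the brighter Trib3 probe was lost (adjusted p = 0.0950).

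The 3 amino acid enzymes all fell. Asns makes asparagine and is a classical ATF4 target. Its log2 ratios of p400 knockdown over EGFP were -0.20, -0.52, -0.33 and -0.56, and the fit gave -0.40 ± 0.07, 1.32-fold lower (limma adjusted p = 0.00715). That call was lost when all arrays were given 1 spread (adjusted p = 0.0914). Phgdh catalyses the first step of serine synthesis from glycolysis. Its brightest probe had log2 ratios of -0.61, -0.18, -0.66 and -0.21. The arrays with p400 RNA in Cy5, replicates 1 and 3, were the lower ones, and all 4 were below 0. The fit gave -0.41 ± 0.06, 1.33-fold lower (limma adjusted p = 0.00587). The other Phgdh probes gave -0.34 ± 0.06 and -0.39 ± 0.07 in the fit over all probes, so the 3 probes differed by less than the sum of their errors. The Phgdh probes A_51_P408729 and A_51_P408732 overlap on the transcript. Psat1, the next enzyme of the serine pathway, had log2 ratios of -0.67, -0.53, -0.51 and -0.28. No array was above 0 and the fitted change was -0.50 ± 0.08, 1.41-fold lower (limma adjusted p = 0.00597).

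The other 2 members did not pass the test in p400 knockdown. Chac1, an enzyme that breaks down glutathione and a target of ATF4 in ER stress, had log2 ratios of 0.41, -0.06, 0.01 and 0.05. Replicate 1 stood above 3 arrays near 0. The estimate was 0.10 ± 0.09, with a 95% interval of -0.11 to 0.32 (limma adjusted p = 0.392), and median centring turned it to -0.19. Herpud1, an ER membrane protein of the machinery that degrades misfolded proteins, had log2 ratios of 0.27, 0.13, -0.35 and -0.09. The arrays lay on both sides of 0, and the estimate was -0.01 ± 0.11, with a 95% interval of -0.29 to 0.27 (limma adjusted p = 0.949). It was -0.29 with median centring, which just missed the threshold, -0.17 without replicate 1, 0.14 without replicate 3 and 0.04 without replicate 4, so its direction is not settled.

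**Figure D2:**
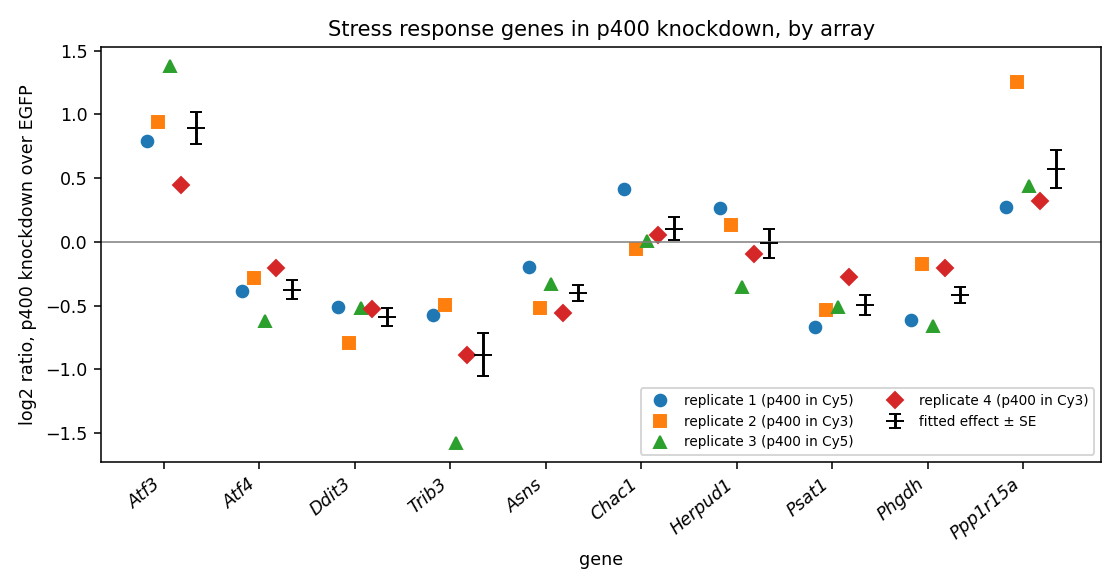
Log2 ratio of p400 knockdown over EGFP for each member on each of the 4 two-colour arrays, with the fitted effect ± SE in black at the right of each gene. Atf3 and Ppp1r15a lie above 0 on all 4 arrays, 6 members lie below 0 on all 4, and Chac1 and Herpud1 fall on both sides.

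The second comparison asks the same of Tip60. In Tip60 knockdown, Atf3 was higher than in EGFP cells, and Trib3 and Chac1 were lower. The other 7 members did not pass the test. The limma fit on log2 levels, each taken relative to the 75th percentile of its array, thus called 3 of 10 members among 16949 genes, where 25.6% of all genes were called. It called 1 member higher, against 15.3% of all genes, and 2 lower, against 10.3% of all genes. In the fit over all 25303 probes 4 of 13 member probes were called, 1 higher and 3 lower, where 22.7% of all probes were called, 13.2% higher and 9.48% lower. The median log2 fold change was -0.15 over the members and 0.01 over all genes. The arrays of both groups did not overlap for 6 of 10 members, against 36.3% of all genes. When each array was set to its median in place of the 75th percentile, the median of all genes moved to -0.20, no member was called higher and 7 were called lower: Atf4 (-0.38), Ddit3 (-0.52), Trib3 (-0.76), Chac1 (-0.62), Herpud1 (-0.35), Psat1 (-0.33) and Phgdh (-0.37).

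Trib3 showed the largest change of the members in Tip60 knockdown. Its brighter probe stood at log2 levels of 2.17, 2.23 and 2.20 in Tip60 replicates 1, 2 and 4, against 2.77, 2.68, 2.86 and 2.69 in EGFP replicates 1 to 4. Every Tip60 array was below every EGFP array, by more than the spread in either group. The level averaged 2.20 ± 0.03 in Tip60 knockdown (SD, n = 3) and 2.75 ± 0.08 in EGFP cells (SD, n = 4), a log2 change of -0.55 ± 0.06 SE, that is 1.46-fold lower (limma adjusted p = 0.000737). It was -0.56 with the slide as a block, -0.60 within slide 2 and -0.52 within slide 3, where it missed the threshold (adjusted p = 0.0518). The second Trib3 probe fell by 0.50 ± 0.13 in the fit over all probes (adjusted p = 0.0324).

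Chac1 and Atf3 also separated the groups. Chac1 stood at 2.93, 2.80 and 2.95 in Tip60 knockdown, against 3.30, 3.45, 3.17 and 3.29 in EGFP cells. All Tip60 arrays were below all EGFP arrays, with a change of -0.41 ± 0.08, 1.33-fold lower (limma adjusted p = 0.00889). The change was -0.39 with the slide as a block, -0.36 within slide 2 (adjusted p = 0.0962) and -0.43 within slide 3 (adjusted p = 0.109). With the authors' deposited log2 values it was -0.41 and not called (adjusted p = 0.0596). Atf3 stood at -0.29, -0.24 and -0.38 in Tip60 knockdown, against -0.75, -0.76, -0.64 and -0.66 in EGFP cells. All Tip60 arrays were above all EGFP arrays, and Atf3 rose 1.32-fold (0.40 ± 0.06, limma adjusted p = 0.00314). The rise was 0.40 with the slide as a block, 0.39 within slide 2 (adjusted p = 0.0763) and 0.42 within slide 3 (adjusted p = 0.0980). With the array median as scale it was 0.19 and not called (adjusted p = 0.111).

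The remaining factors and the feedback subunit were closer to their controls. Ddit3 stood at -0.80, -0.71 and -0.81 in Tip60 knockdown, against -0.51, -0.31, -0.35 and -0.69 in EGFP cells. The Tip60 arrays lay below the EGFP arrays, but EGFP replicate 4 came close to them. The estimate of -0.31 ± 0.10 missed the threshold (limma adjusted p = 0.0558) and passed it under 6 of 20 alternatives, among them the fit with Tip60 replicate 3 (-0.34, adjusted p = 0.0260). It was -0.33 within slide 2 and -0.30 within slide 3. Atf4 stood at 2.93, 2.69 and 2.89 in Tip60 knockdown, against 3.02, 3.04, 2.87 and 3.11 in EGFP cells. These groups overlapped, and the estimate was -0.17 ± 0.08 with a 95% interval of -0.37 to 0.02 (limma adjusted p = 0.182). Without Tip60 replicate 2 it was -0.098. Ppp1r15a stood at 0.60, 0.58 and 0.41 in Tip60 knockdown, against 0.28, 0.06, 0.29 and 0.53 in EGFP cells. EGFP replicate 4 lay among the Tip60 arrays, and the estimate was 0.24 ± 0.11 with an interval of -0.03 to 0.50 (adjusted p = 0.173).

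None of the amino acid enzymes passed the test in Tip60 knockdown. Asns stood at 6.93, 7.07 and 7.19 in Tip60 knockdown, against 6.97, 7.02, 7.02 and 6.97 in EGFP cells, which were nearly equal among themselves. Its estimate was 0.07 ± 0.07 with a 95% interval of -0.09 to 0.23 (limma adjusted p = 0.502), and -0.14 at the lowest over the alternatives. The brightest Phgdh probe stood at 5.35, 5.61 and 5.54 in Tip60 knockdown, against 5.62, 5.67, 5.74 and 5.62 in EGFP cells. The groups did not overlap, by a small margin, and the estimate was -0.16 ± 0.08 (adjusted p = 0.163), or -0.087 without Tip60 replicate 1. Psat1 stood at 4.99, 4.998 and 5.12 in Tip60 knockdown, against 5.19, 5.15, 5.07 and 5.24 in EGFP cells, with overlap and an estimate of -0.12 ± 0.06 (adjusted p = 0.208). Herpud1 stood at 1.34, 1.20 and 1.30 in Tip60 knockdown, against 1.38, 1.53, 1.36 and 1.43 in EGFP cells. Its groups did not overlap, and the estimate was -0.14 ± 0.06 (adjusted p = 0.146). A p that misses the threshold does not show equal levels: these intervals leave room for falls of up to 0.34 for Phgdh, 0.29 for Herpud1 and 0.27 for Psat1.

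**Figure D3:**
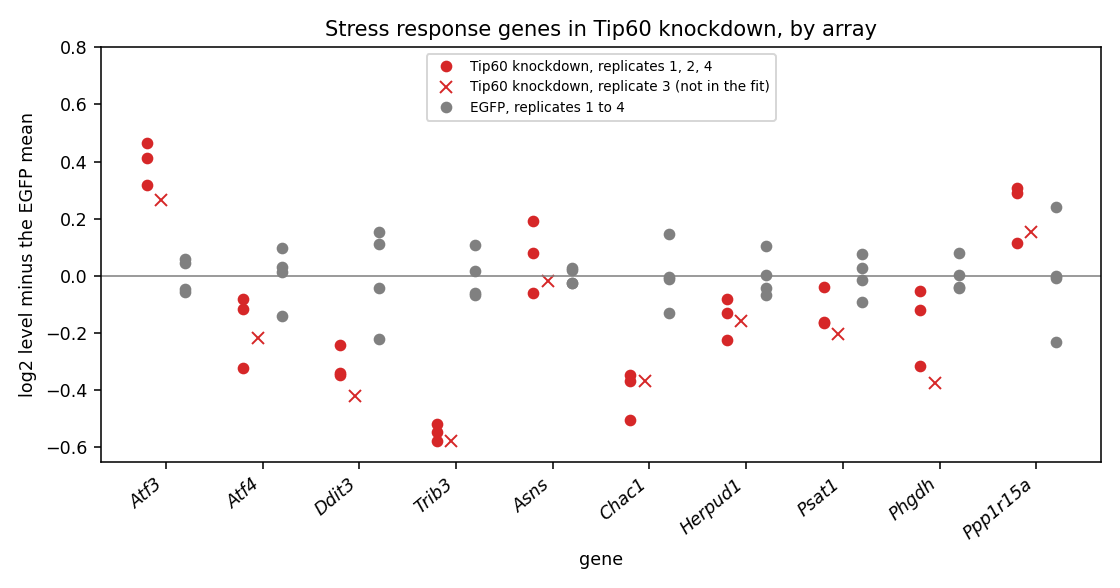
Log2 level of each member on each single-colour array, minus the mean of the 4 EGFP arrays; red points are Tip60 knockdown replicates 1, 2 and 4, red crosses replicate 3, which was not in the fit, and grey points EGFP replicates 1 to 4. The red points lie clear of the grey ones for Atf3, Trib3 and Chac1, and narrowly for Ddit3, Herpud1 and Phgdh.

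The difference between both effects was tested per probe, as the p400 minus the Tip60 log2 fold change with the smaller degrees of freedom of both fits. Both effects were taken as independent, though the labels do not say whether the EGFP RNA of both array types came from the same extracts. A shared control could move both effects the same way. The largest differences were in Chac1 (p400 0.10 and Tip60 -0.41, difference 0.51 with a 95% interval of 0.23 to 0.79) and Atf3 (0.89 and 0.40, difference 0.49, interval 0.15 to 0.83). Asns had a difference of -0.47 (-0.40 and 0.07, interval -0.71 to -0.24) and Psat1 one of -0.38 (-0.50 and -0.12, interval -0.62 to -0.13). No member probe passed the threshold, 0 of 13, where 3.45% of 25136 probes were called. The lowest adjusted p was 0.0562, for Asns, and 5 member probes had an unadjusted p under 0.05, the fifth being the brightest Phgdh probe (difference -0.25). With degrees of freedom estimated from both standard errors, an alternative, Asns, Chac1, Psat1 and Atf3 were called (adjusted p of 0.00703, 0.0136, 0.0276 and 0.0487). Every member but Chac1 and Asns stood on the same side of 0 in both knockdowns, though Herpud1 was at -0.01 in p400 knockdown. Trib3 had -0.88 and -0.55 at the brighter probe (difference -0.34, interval -0.76 to 0.09) and -0.65 and -0.50 at the other (difference -0.15, interval -0.51 to 0.22). The p400 ratios were measured in 2 colours and the Tip60 levels in 1, so platform and knockdown cannot be told apart in these differences.

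**Figure D4:**
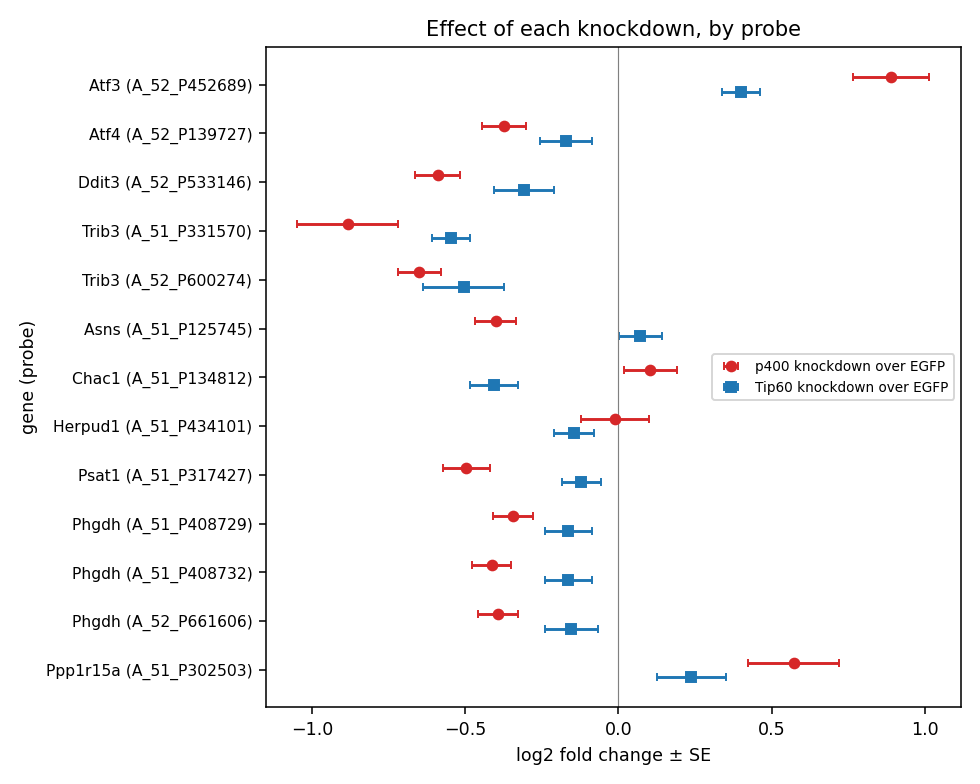
Log2 fold change ± SE of each member probe in p400 knockdown (red, upper) and Tip60 knockdown (blue, lower) over EGFP, from the fits over all probes. Every member but Chac1 and Asns lies on the same side of 0 in both knockdowns, though Herpud1 is at -0.01 in p400 knockdown. Chac1 is negative in Tip60 knockdown and Asns in p400 knockdown.

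The profile of 4 members was described over 11 values, the 4 p400 log2 ratios and the 7 single-colour levels minus the EGFP mean. It was set against the probes with all 11 values, 24932 with the member probes among them. The nearest by mean absolute difference on the log2 scale were Hax1 (0.0331), Zfp661 (0.0366) and Rad54b (0.0502) for Atf4, and Mgat4b (0.0660), Sat2 (0.0702) and Pla2g4b (0.0754) for Ddit3. For Trib3 they were Ppfia4 (0.0942), Marcks (0.101) and Inpp5d (0.102), and for Asns Elmod2 (0.0416), Jdp2 (0.0532) and Nbdy (0.0551). No member could be among them, as members were left out of this ranking. Among the members, Atf4 lay nearest to Psat1 (0.107), and Atf3 nearest to Ppp1r15a (0.260). The distances between Atf4 and the Phgdh probes were 0.121 to 0.130. These values share arrays and scaling, so closeness is no sign of a link.

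The rest of the pathway was read from 8 lists of 98 genes, of which 97 were tested in each fit (Slc7a11 was too dim). In p400 knockdown 17 were higher and 17 lower, and in Tip60 knockdown 12 were higher and 13 lower. These counts compare with 20.1% higher and 15.0% lower among all genes in p400 knockdown, and 15.3% and 10.3% in Tip60 knockdown. The medians over these genes were 0.03 and -0.02. Without p400 replicate 2 the 34 calls in p400 knockdown were 15. Of the genes called, 6 of 34 in p400 knockdown kept their call under every alternative run (Lars, Nupr1, Bbc3, Pmaip1, Dnajb9 and Derl2), and 2 of 25 in Tip60 knockdown (Bbc3 and Dnajb9). With median centring 17 of 17 falls and 7 of 17 rises in p400 knockdown kept their call, and with the array median 13 of 13 falls and 1 of 12 rises in Tip60 knockdown did.

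Upstream, none of the 4 eIF2 kinases was called higher in either knockdown by limma, and 2 in p400 knockdown and 0 in Tip60 knockdown had an unadjusted p under 0.05 in either direction. Eif2ak4, which encodes the amino acid sensor GCN2, fell in p400 knockdown (-0.40 ± 0.07, limma adjusted p = 0.00711) and stood at -0.12 in Tip60 knockdown. Eif2ak3, which encodes PERK, stood at 0.33 ± 0.11 in p400 knockdown (adjusted p = 0.0662) and 0.00 in Tip60 knockdown. Of 10 subunits of eIF2, its exchange factor and its phosphatases, Eif2b1 alone was called in p400 knockdown (0.31), which median centring turned to -0.0065. Ppp1r15b, the constitutive counterpart of Ppp1r15a, alone was called in Tip60 knockdown (-0.29 ± 0.05, adjusted p = 0.00587).

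Of 7 bZIP partners, 3 rose in p400 knockdown: Atf2 (0.80 ± 0.13), Jun (0.36 ± 0.10) and Batf3 (0.32 ± 0.06). Without replicate 2 the call of Atf2 alone was kept, and none was when all arrays were given 1 spread. Jun also lost its call without replicate 1 or 3, and stood at 0.82 with the deposited LogRatio. Batf3 also lost its call without replicate 4. In Tip60 knockdown Atf5, a factor related to ATF4, rose (0.33 ± 0.07) as did Atf2 (0.17 ± 0.05), which the array median turned to -0.039, and the C/EBP genes Cebpg (-0.27 ± 0.08) and Cebpb (-0.21 ± 0.06) fell. These calls lay close to the threshold: of 20 alternatives, 11 ended the call of Cebpg, 13 that of Cebpb and 8 that of Atf5, while Atf2 lost it under 14 and turned under 1. Cebpg and Cebpb, partners of ATF4 at the composite element, stood at -0.13 and 0.10 in p400 knockdown, where neither was called. Over all genes 20.1% were higher in p400 knockdown, and 15.3% higher and 10.3% lower in Tip60 knockdown.

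Of 36 genes of amino acid supply in 3 lists, 10 fell and 3 rose in p400 knockdown, beside 15.0% lower and 20.1% higher over all genes. Without p400 replicate 2, 2 of these falls (Slc38a1 and Lars) and 1 of these rises (Iars) kept their call. Without replicate 3 the falls kept were 4, without replicate 4 they were 5, and with all arrays given 1 spread they were 2 (Mthfd1l and Lars). Median centring kept all 10 falls and 0 rises. Of 12 enzymes of amino acid and one-carbon metabolism, 4 fell and 1 rose, with a median of -0.21. They were Mthfd1l (-0.39 ± 0.08), Psph, the last enzyme of serine synthesis after Phgdh and Psat1 (-0.37 ± 0.07), Pycr1 of proline synthesis (-0.31 ± 0.07) and Cbs, while Mthfd2 stood at 0.22, which median centring turned to -0.065. In Tip60 knockdown Gpt2, an alanine aminotransferase, was the single call among them (-0.44 ± 0.06), and the median was -0.12. Of 9 amino acid transporters tested, 3 fell and 1 rose in p400 knockdown. The glutamine carrier Slc38a1 (-0.47 in p400 and -0.33 in Tip60 knockdown) and the glycine carrier Slc6a9 (-0.35 and -0.36) fell in both. The cationic amino acid carrier Slc7a3 fell in p400 knockdown (-0.26), and Slc3a2, the heavy chain of several carriers, was the rise (0.23), which median centring turned to -0.10. Of 15 aminoacyl-tRNA synthetases, 3 fell and 1 rose in p400 knockdown: Lars (-0.49), Sars (-0.39) and Gars (-0.33) were lower and Iars (0.51) higher. Sars was the single call of that list in Tip60 knockdown (-0.26).

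Of 16 other targets of ATF4 and CHOP, 5 fell and 2 rose in p400 knockdown, with a median of -0.09. Those lower were Vldlr (-0.69 ± 0.14), Gdf15, a secreted stress signal (-0.60 ± 0.08), Nupr1 (-0.56 ± 0.09), Bbc3 (-0.53 ± 0.06) and Stc2. Pmaip1, which encodes the cell death protein NOXA, rose by 1.13 ± 0.18 and Ero1a, an oxidase of the ER, by 0.35 ± 0.06. The call of Ero1a was lost with median centring (0.087, adjusted p = 0.359), with all arrays given 1 spread (adjusted p = 0.0693) and without replicate 2 (adjusted p = 0.0555). In Tip60 knockdown 4 fell and 2 rose, with a median of -0.09. Bbc3 (-0.62 ± 0.11), Gdf15 (-0.50 ± 0.11) and Trib1 (-0.35 ± 0.06) were the deepest falls, and Pmaip1 (0.51 ± 0.07) and Ero1a (0.40 ± 0.05) rose. With the array median as scale Pmaip1 was at 0.30 and Ero1a at 0.19, and neither was called. The call of Gdf15 was lost without Tip60 replicate 1 or 4. Bbc3, Pmaip1 and Gdf15 are also targets of p53. Over all genes 15.0% were lower and 20.1% higher in p400 knockdown, and 10.3% and 15.3% in Tip60 knockdown.

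Of 24 genes of the ATF6 and XBP1 arms, 8 rose and 1 fell in p400 knockdown, with a median of 0.19. In Tip60 knockdown 8 rose and 2 fell, with a median of 0.13. Over all genes 20.1% were higher and 15.0% lower in p400 knockdown, and 15.3% and 10.3% in Tip60 knockdown. The rises of this list depended on the scaling. Median centring kept 3 of the 8 in p400 knockdown (Ern1, Dnajb9 and Derl2), and the array median kept 1 of the 8 in Tip60 knockdown (Dnajb9). In p400 knockdown 4 kept their call without replicate 2 and 5 without replicate 3. In Tip60 knockdown 4 did without Tip60 replicate 1 or 4, and 5 without EGFP replicate 1 or 3. Dnajb9, an ER cochaperone and XBP1 target, rose most in both (1.67 ± 0.14 in p400 knockdown, adjusted p = 0.00137, and 0.84 ± 0.09 in Tip60 knockdown, adjusted p = 0.000824). In p400 knockdown Derl2, of ER-associated degradation, rose by 0.66 ± 0.07 and Sdf2l1 by 0.48 ± 0.07. In Tip60 knockdown Sel1l rose by 0.50 ± 0.11 and Derl3 by 0.41 ± 0.09. Xbp1 itself fell in both (-0.43 ± 0.10 and -0.31 ± 0.07), Edem1 fell in Tip60 knockdown (-0.31), and the ER chaperone gene Hspa5 was called in neither (0.20, adjusted p = 0.0827, and 0.11, adjusted p = 0.328). The call of Xbp1 was lost without p400 replicate 2 or 4 in the first fit and without Tip60 replicate 4 in the second, and that of Edem1 without Tip60 replicate 1. Median centring of the p400 arrays turned Manf (0.25) to -0.072, and the array median as scale turned Creld2 in Tip60 knockdown (0.18) to -0.027.

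**Figure D5:**
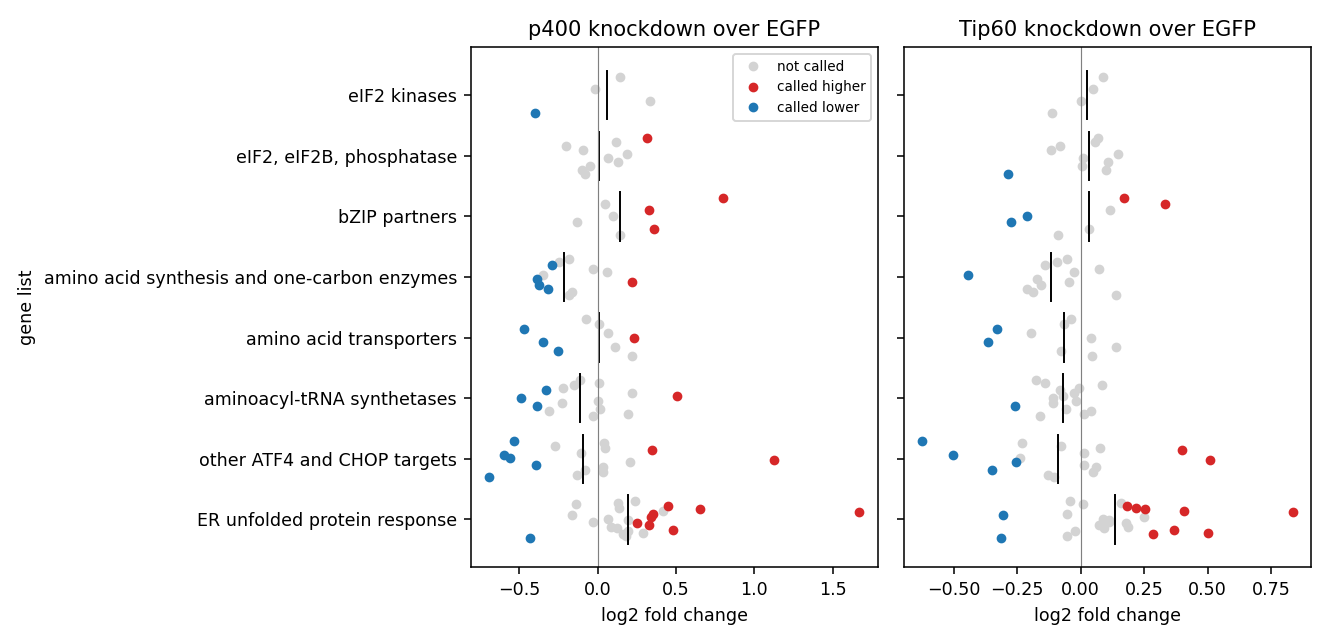
Log2 fold change of each tested gene of 8 pathway lists in p400 knockdown (left) and Tip60 knockdown (right) over EGFP; red points were called higher, blue points lower and grey points were not called, and black bars are list medians. The ER unfolded protein response list holds 8 of 24 genes called higher in each panel, where 20.1% (left) and 15.3% (right) of all genes were.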

How the data were processed

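The arrays are Agilent design 014868, read with Feature Extraction 9.5.1.1 per the file headers, with probe positions on build mm7. The deposited scanner files hold spot intensity, background and, on two-colour arrays, LogRatio, a log10 ratio of red over green made by that software. The deposited series matrix holds log2 values made by the authors with steps not given in the sources used here, and its columns have medians of 0 to 0.01 for the p400 ratios and 7.26 to 7.27 for the single-colour levels. For p400, background was removed from the mean intensity with normexp (offset 50), loess was run within each array with control spots given weight 0, and limma 3.58.1 (R 4.3.3) fitted the knockdown effect and a dye term. For Tip60, the log2 processed signal minus the array's 75th percentile was fitted with limma, without replicate 3. A probe entered a fit if at least 3 arrays of 1 RNA had it well above background. The brightest such probe stood for its gene, and every member probe was also taken from a fit over all probes. Tests are two-sided with Benjamini-Hochberg adjustment and a threshold of 0.05. Of 41174 probes, 22951 were named by accession, 6659 by symbol, 3109 by synonym and 8455 as in the file. Of the 10 members, 9 carried their name in the file and 1 was matched by accession. The same models were also run on simulated data, with variances drawn from these fits. In the simulation of the p400 design, 67 of 18691 genes were changed 1.5-fold and 76.1% of these were recovered. In that of the Tip60 design, 67 of 16949 were changed 1.5-fold and 71.6% were recovered. For 67 genes changed 2-fold the shares were 100% and 79.1%. In the data 35.2% and 25.6% of all genes were called, and recovery with so large a share of changed genes was not tested. All 10 members are named, with Eif2ak3, Hspa5 and up to 3 rises and 3 falls per pathway list. Cbs, Stc2, Creld2, Manf, Ern1 and the named uncalled values were added after their values were seen. The members, lists, tests and alternatives were chosen with earlier results of these data known. The p400 arrays were taken as 1 slide, without a check of their barcodes, and no slide effect was fitted there.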

Additional observations from a re-analysis of the deposited data

Results flagged for a closer look

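Of 26 sets of 4 arrays (the p400 log2 ratios and the EGFP levels of each member probe), 2 held an array whose gap to the nearest other, over the range of the set, was above Dixon's 95% limit for 4 values, and chance gives about 1 in 20. Both were p400 replicate 2. For Ddit3 this array stood at -0.79, while the other ratios lay between -0.53 and -0.51 (gap over range 0.950). For Ppp1r15a it stood at 1.26, while the others lay between 0.27 and 0.44 (0.830), and the change without it is given above.

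Tip60 replicate 3, which the comparison left out, held Atf3 at a log2 level of -0.44. This lies above all 4 EGFP arrays, whose highest value was -0.64, and below Tip60 replicates 1, 2 and 4, whose lowest was -0.38.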

How the results depend on the processing

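In p400 knockdown the 8 called members were 6 to 8 under every alternative run, and 6 to 8 with 1 replicate left out. The 34 called pathway genes were 56 with median centring, 11 when arrays were scaled to 1 spread, and 15 to 35 with 1 replicate left out. In Tip60 knockdown the 3 called members were 7 with the array median as scale and 2 with the authors' deposited log2 values. They were 1 within slide 2 and 3 to 4 with 1 replicate left out. The fit within slide 3, whose values for Trib3, Chac1 and Atf3 are given above, held 1 Tip60 array against 2 EGFP arrays. Its error came from the spread of those EGFP arrays and, through limma, from that of all genes. The 25 called pathway genes were 14 with no filter on dim probes, 6 within slide 2, 2 within slide 3 and 14 to 22 with 1 replicate left out. Fits within a slide hold fewer arrays. With the replicate number as a block, 1 member and 5 pathway genes were called, and calls over all genes were 1541 higher and 323 lower. Same-numbered Tip60 and EGFP arrays did not deviate together (r of -0.29, -0.38 and -0.12 for numbers 1, 2 and 4). Each of these pairs was split over slides 2 and 3, so the r values cannot decide whether the numbers pair the arrays. The difference test called 4 member probes with degrees of freedom estimated from both standard errors and 0 in the main test, where 5 had an unadjusted p under 0.05.

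Signs turned for Eif2b1 (-0.0065), Mthfd2 (-0.065), Slc3a2 (-0.10) and Manf (-0.072) with median centring of the p400 arrays, and for Atf2 (-0.039) and Creld2 (-0.027) with the array median in Tip60 knockdown. Over all genes, 3766 higher and 2811 lower in p400 knockdown became 2882 and 6784 with median centring, 2243 and 823 with scaling, and 1914 and 1228 without p400 replicate 2. In Tip60 knockdown 2586 higher and 1746 lower became 2091 and 2339 with quantile normalization of the processed signal and 1452 and 4916 with the array median. They were 2118 and 817 with no filter, 1424 and 441 within slide 2, and 1716 and 161 within slide 3. The cause of these shifts was not tested.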

Other observations

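On Tip60 replicate 3, left out of the comparison, Asns and Ppp1r15a stood among the 4 EGFP arrays and Atf3 above them. The probes of the other members stood below all 4. The share of all probes below them was not counted, so these positions cannot be read as a trait of the members. With this array in the fit, the median change of all genes was -0.02, against 0.01 without it. This array also had the fewest spots well above background (22188). Trib3 stood at log2 levels of 2.17 and 0.25 with its probes and Chac1 at 2.93, against lowest EGFP values of 2.68, 0.84 and 3.17. Ddit3 stood at -0.89, the lowest value of that gene on any single-colour array.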
